A study of Mus musculus with 6 samples.

Results

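Zbtb16 encodes PLZF, the transcription factor that marks innate-like T cells, and cells with at least 1 UMI of Zbtb16 were picked out from splenic CD4 T cells of mice lacking H2-O (H2-O KO) and of wild-type mice (H2-O WT). A UMI is a tag that counts 1 captured RNA molecule. Besides a Zbtb16 UMI, the rule asked for at least 200 genes, at most 12000 UMIs, at most 5% of UMIs from mitochondrial genes, at least 10% from ribosomal protein genes, and 0 UMIs of Foxp3, Cd79a, C1qa, C1qb and C1qc, the markers of Treg, B cells and macrophages. It found 229 Zbtb16+ cells among the 20849 cells that met its other conditions, out of 38073 called cells in 6 libraries. The remaining 20620 cells are the other kept cells below. Because measured values chose the Zbtb16+ cells, every difference between them and the other kept cells is a description, without a test.

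Each library came from the spleen of 1 mouse of the strain C57BL/6J (C57BL6/J in the labels), with 3 mice carrying the genotype H2-O Knockout and 3 the genotype H2-O Wildtype, none of them immunized. The age was 8 weeks by the labels, and the study's methods give a higher one. Splenocytes were sorted as CD3+ CD4+ B220- NK1.1- cells and sequenced with the 10x Genomics 5' kit. NK1.1, the product of Klrb1c, is carried by many NKT cells of this strain, so this gate and the CD4 gate set which NKT cells could be seen. The Zbtb16+ cells numbered 52, 33 and 45 in the KO libraries and 19, 50 and 30 in the WT libraries, here and below in the order of replicates 1 to 3. Their summed counts were 349487, 194470 and 279114 UMIs in the KO libraries and 103547, 349284 and 184236 UMIs in the WT libraries, so the first H2-O WT library was the shallowest. The median Zbtb16+ cell held between 5356 and 6768 UMIs by library, and the median other kept cell between 4129 and 5653. Between 21 and 99 called barcodes were shared by any 2 libraries. No Zbtb16+ barcode was shared by 2 libraries as a Zbtb16+ cell, and at most 2 in any pair of libraries were also called in the other library.

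H2-O acts with H2-DM, the exchange factor that loads peptides on MHC class II, and it is made chiefly in B cells and the thymic medulla. It has been described as an inhibitor of H2-DM, whereas the study proposes that both cooperate in the choice of peptides. H2-Oa (chromosome 17, 34092340 to 34095234 in GRCm38) encodes the alpha chain of H2-O. Where T cells make little of the message, the deleted gene says little about the labels. The Zbtb16+ cells held 2, 0 and 0 H2-Oa UMIs in the KO libraries and 0, 2 and 15 in the WT libraries, and 11 of the last 15 were in 1 cell. In the cells set aside for a Foxp3, Cd79a or C1q UMI, H2-Oa stood at 3.70, 4.53 and 3.09 CPM (UMIs of a gene per 1000000 UMIs summed over the same cells) in the KO libraries and at 18.6, 22.2 and 38.1 CPM in the WT libraries. Every H2-O KO library was below every H2-O WT library there, in the direction of the labels. H2-Ob, which encodes the beta chain, was higher in every KO library than in every WT library in those cells, at 48.4, 56.8 and 34.4 CPM against 26.4, 30.4 and 32.4 CPM. The same order held in the other kept cells, at 25.5, 30.7 and 26.4 CPM against 20.9, 20.5 and 19.9 CPM. In the Zbtb16+ cells the genotypes overlapped.

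Natural killer T (NKT) cells carry an alpha-beta T cell receptor but recognise lipids on CD1d, leave the thymus already primed, and make cytokines within hours of stimulation. PLZF drives this program and is shared with MAIT cells and with some gamma-delta T cells. NKT cells are grouped into NKT1 (T-bet and interferon gamma), NKT2 (high PLZF and IL-4) and NKT17 (IL-17).

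The other 5 defining markers of such cells were all higher in the Zbtb16+ cells than in the other kept cells, and most of the cells carried at least 1 of them. Cxcr6, a chemokine receptor that keeps NKT cells in liver and spleen, was found in 149 of the 229 cells (65.1%), against 1.92% of the other kept cells. Its level was 423, 684 and 265 CPM in the KO libraries and 309, 418 and 271 CPM in the WT libraries, against 6.01 to 10.7 CPM in the other kept cells. The Zbtb16+ cells were the higher of the pair in every library, and the H2-O KO and H2-O WT libraries overlapped. Il4, the cytokine that NKT cells are known to release early, was in 106 cells (46.3%, against 0.339%) at 121 ± 41.8 CPM (SD, n = 6 libraries), against 1.24 ± 0.600 CPM. Zfp683, which encodes the tissue residency factor Hobit, was in 88 cells (38.4%, against 0.757%). Cd160, a receptor for HVEM, was in 85 cells (37.1%, against 1.35%). Xcl1, a chemokine that draws cross-presenting dendritic cells, was in 79 cells (34.5%, against 0.451%), at levels from 57.3 CPM in H2-O KO replicate 3 to 341 CPM in H2-O WT replicate 2. All 5 were higher in the Zbtb16+ cells in 6 of 6 libraries, where 5.56% of 19151 genes were. The markers were chosen with earlier results of these data known, so this describes the cells and does not test their name. The 19151 genes had a UMI in either set, but only 12774 had one in the Zbtb16+ cells, and the others could not be higher there. With every cell thinned to 1500 UMIs, Cxcr6 was in 38.2% ± 10.7 of Zbtb16+ cells (SD, n = 6) and 0.893% ± 0.199 of the other kept cells.

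**Figure D1:**
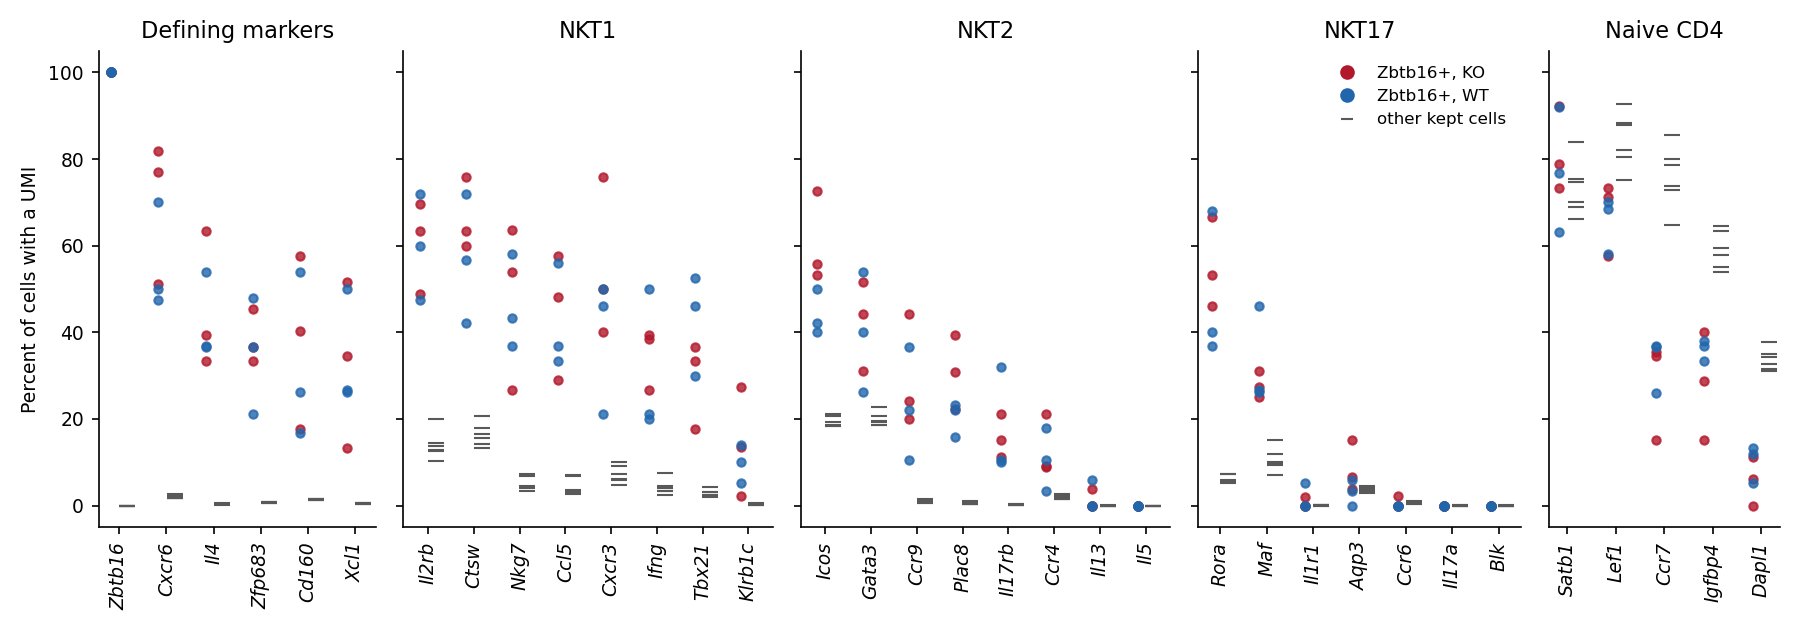
Percent of cells with at least 1 UMI of each gene (y axis), by list. Red and blue points are the Zbtb16+ cells of each H2-O KO and H2-O WT library, and grey dashes the other kept cells of each library; the defining markers and most NKT1 and NKT2 genes lie far above the dashes, Il17a, Blk and Il5 lie at 0, and the naive genes other than Satb1 lie below the dashes.

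The 229 cells were not alike. Of them 55 had none of the other 5 defining markers, 38 had 1, 32 had 2, 41 had 3, 33 had 4 and 30 had all 5, whereas 95.9% of the other kept cells had none and 2 cells had all 5. Zbtb16 was read as a single UMI in 98 cells, of which 38 (38.8%) had no other marker, and as 2 to 12 UMIs in 131 cells, of which 17 (13.0%) had none. Among the 55 cells without another marker, 38 (69.1%) had a UMI of Ccr7, the lymph node homing receptor of naive T cells, against 77.0% of the other kept cells, while 32 of the 174 cells with another marker did (18.4%). A gamma chain UMI was found in 17 of the 55 (30.9%), Trdc in 7 and Traj18 in 1. At least 1 other marker was thus found in 174 of the 229 cells, while the name NKT-like could not be shown from the markers for the 55. The share without another marker was 17.3%, 12.1% and 33.3% in the KO libraries and 42.1%, 14.0% and 40.0% in the WT libraries, so the genotypes overlapped, and 1 KO and 2 WT libraries were on the high side. At the lower limit of ribosomal protein UMIs, 3 cells lay between 10% and 12%, and 4, 3 and 9 Zbtb16+ cells of H2-O KO and 9, 30 and 25 of H2-O WT fell under 10% and were left out.

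Genes that the marker count did not use moved with it. In the cells with no other marker Ccl5, a chemokine of effector T cells, stood at 35.3 CPM, all from 1 cell of H2-O WT replicate 3. In those with all 5 it reached 2977 CPM. Nkg7, a cytotoxic granule gene, went from 16.0 to 1162 CPM and Il2rb, the receptor subunit for IL-15, from 57.7 to 847 CPM. Ccr7 went the other way, from 359 to 5.72 CPM, and Lef1, a factor of naive T cells, stood at 619 CPM with no other marker and 144 CPM with 4. These are pooled levels over libraries. Between cells with 3 or more other markers and cells with none, Ccl5, Nkg7, Tbx21, Ifng, Il2rb, Id2 and Rora were higher in 6 of 6 libraries, and Ccr7, Lef1 and Igfbp4 were lower in 6 of 6. Il17rb did not follow this order, at 22.1 ± 31.2 CPM with 3 or more markers and 36.0 ± 23.3 CPM with none (SD, n = 6). The median UMI count of a cell was 5592 with none, 5840 with all 5 and highest, at 7611, with 1.

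**Figure D2:**
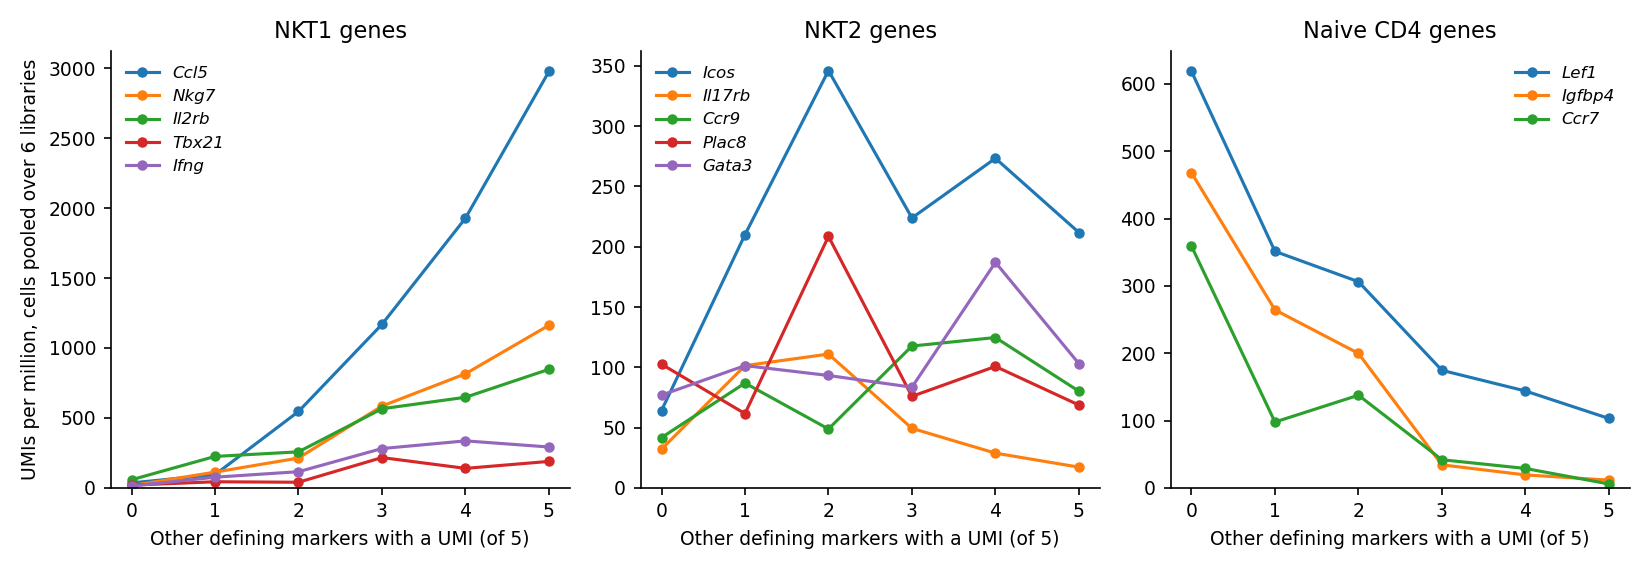
Level in CPM (y axis) of NKT1, NKT2 and naive CD4 genes in Zbtb16+ cells grouped by how many of Cxcr6, Xcl1, Cd160, Il4 and Zfp683 had a UMI (x axis), pooled over the 6 libraries with 55, 38, 32, 41, 33 and 30 cells from left to right. Ccl5 climbed to 2977 with all 5 markers, the 3 naive genes were lower with all 5 markers than with none, and Il17rb was highest with 1 and 2 markers.

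The semi-invariant receptor of NKT cells joins the alpha chain segment Trav11 to Traj18. Both segments are shown here as GRCm38 carries them, since the calls below rest on reads from them. Trav11 lies on chromosome 14 from 53519303 to 53519859, and its second exon (chr14:53519569-53519859, plus strand) codes for the variable region. The capitals mark the last 13 bases, from the final in-frame TGT, the cysteine codon at which the junction begins. In Traj18 (chr14:54200777-54200842, plus strand) they mark the match to the codons of the Phe-Gly-X-Gly motif of J segments, read on this strand.

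Trav11 exon 2: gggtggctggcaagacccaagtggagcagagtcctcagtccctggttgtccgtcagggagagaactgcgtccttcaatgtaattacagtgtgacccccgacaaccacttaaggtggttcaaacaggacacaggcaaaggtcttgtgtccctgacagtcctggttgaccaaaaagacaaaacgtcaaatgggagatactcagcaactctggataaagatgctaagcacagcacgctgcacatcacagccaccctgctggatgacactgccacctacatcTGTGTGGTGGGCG

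Traj18: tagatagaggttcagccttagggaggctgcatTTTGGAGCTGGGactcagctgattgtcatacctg

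Trav11 has a second copy, Trav11d, on the same chromosome from 52824357 to 52824912. The transcripts of the 2 genes did not differ at any of 342 aligned bases, and 252 of the 253 stretches of 91 bases (the length of a read) in Trav11 also occur in Trav11d, so the 2 cannot be told apart and are counted together. A Trav11 or Trav11d UMI was found in 21 Zbtb16+ cells, with 7, 1 and 1 cells in the KO libraries and 1, 10 and 1 in the WT libraries. The first H2-O KO and the second H2-O WT library, which also held the most UMIs, thus gave 17 of the 21. Trav11 itself was in 8.73% of the Zbtb16+ cells and 0.0582% of the other kept cells. Traj18 was in 23 cells (10.0%, against 0.204%), and made up 87.5% of all Traj UMIs in the Zbtb16+ cells against 11.6% in the other kept cells. Only 4 cells showed both segments, and 40 cells (17.5%) showed either. Of these 40 cells, 39 had another defining marker and 39 a beta segment known to pair with the invariant chain (below), none had a Trdc UMI, 37 had Cxcr6 and 26 had Xcl1. A read of 91 bases seldom spans a whole junction, and a missing segment does not show that a cell used another one.

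NKT cells pair the invariant chain with few beta segments, chiefly Trbv13-1, Trbv13-2, Trbv13-3, Trbv29 and Trbv1. These 5 made up 75.0% of the Trbv UMIs of the Zbtb16+ cells and 38.1% of those of the other kept cells. By library the share was 79.1%, 83.8% and 63.8% in the KO libraries and 91.0%, 74.6% and 66.7% in the WT libraries, against 36.0% to 40.5% in the other kept cells. Every library was above all 6 values of the other kept cells, and the genotypes overlapped. Trbv13-2 alone took 25.7% of the Trbv UMIs, against 11.7%. Trbv29 took 9.79% against 1.90%, with 3.65% to 17.4% by library against 1.56% to 2.23%, and stood at 212 ± 100.4 CPM against 32.3 ± 5.14 CPM (SD, n = 6). The other segments were not higher in every library. Trbv1 and Trbv13-1 took a smaller share than in the other kept cells in H2-O KO replicate 3 and H2-O WT replicate 3. Trbv13-3 did so in H2-O WT replicate 2 (2.38% against 6.24%) and replicate 3 (2.40% against 5.83%). No stretch of 91 bases of Trbv13-2 occurs in Trbv13-1 or Trbv13-3, so these close relatives can be separated. A Trbv UMI was found in 96.5% of the Zbtb16+ cells and 94.1% of the other kept cells, but a Trav UMI in 51.1% against 78.7%. The lower share of Trav held in each library, at 42.4% to 60% against 71.9% to 84.1%.

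NKT1 genes had a UMI in 82.5% of the Zbtb16+ cells, against 44.5% of the other kept cells. Of the 16 genes of the list, 14 had a higher mean in the Zbtb16+ cells than in the other kept cells and 10 were higher in all 6 libraries, where 43.5% and 5.56% of 19151 genes did so. Tbx21, which encodes T-bet, was in 80 cells (34.9%, against 2.79%) at 91.6, 129 and 64.5 CPM in the KO libraries and 145, 97.3 and 119 CPM in the WT libraries. H2-O KO replicate 3 was the lowest, and the genotypes overlapped. Ifng, the cytokine of this program, was in 80 cells at 161 ± 62.2 CPM against 19.6 ± 10.3 CPM (SD, n = 6). Ccl5 was in 102 cells at 999 ± 347 CPM against 162 ± 84.5 CPM, again with H2-O KO replicate 3 lowest at 351 CPM. Il2rb was in 141 cells and Ctsw, a cathepsin of cytotoxic cells, in 146. Klrb1c, the gene of the NK1.1 protein that the sort removed, still had UMIs in 28 cells (12.2%, against 0.242%), of which 15 also had Tbx21. Granzyme genes were rare. Gzmb was in 3 cells, Gzma in 1, and Ncr1, the NK cell receptor NKp46, in none, which allows up to 1.31% of the cells to have a UMI and sets no limit on how many express the gene.

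NKT2 genes had a UMI in 96.5% of the Zbtb16+ cells, against 77.6%. Of the 12 genes 9 had a higher mean in the Zbtb16+ cells and 6 were higher in all libraries. Apart from Il4, the clearest was Il17rb, the receptor for IL-25, in 42 cells (18.3%, against 0.199%), at 48.6, 41.1 and 35.8 CPM in the KO libraries and 77.3, 100.2 and 38.0 CPM in the WT libraries. H2-O WT replicates 1 and 2 were above every H2-O KO library, and replicate 3 was not. Plac8 (104 ± 50.3 CPM against 4.97 ± 2.86 CPM), Ccr9, a gut homing receptor (75.1 ± 31.6 against 2.45 ± 0.377 CPM), and Icos, a costimulator (207 ± 65.2 against 58.4 ± 8.61 CPM), were also higher in every library. Gata3, the factor of type 2 responses, was 1.92 times as high as in the other kept cells. Il6ra went against the list, at 75.9 ± 21.9 against 162 ± 10.7 CPM. Il13 was in 5 cells, all of them with Il17rb, and Il5 in none.

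NKT17 cells were scarcely seen. Il17a, Il17f and Blk had no UMI. Il23r was in 3 cells, Il1r1 in 2, Ccr6 in 1 and Sdc1, a surface marker of NKT17 cells, in 4. The list was higher on the mean for 10 of 14 genes and in all libraries for 4, and those 4 (Rora, Maf, Tmem176a and Tmem176b) are also made outside NKT17 cells. Rora, a nuclear receptor, was in 123 cells (53.7%, against 6.08%) at 114, 288 and 201 CPM in the KO libraries and 193, 223 and 114 CPM in the WT libraries. Of the genes of follicular helper and IL-10 making NKT cells none of 6 was higher in all libraries, and Il10 had no UMI.

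T-bet and the IL-25 receptor split the cells into unlike sets. Tbx21 without Il17rb was found in 69 cells and Il17rb without Tbx21 in 31, both were in 11 and neither in 118. This split was chosen after the values were seen and is a description. Against the Tbx21 set, the Il17rb set had less Ccl5 (98.6 ± 139 against 1683 ± 767 CPM, SD, n = 6), Nkg7 (24.6 ± 50.9 against 744 ± 345 CPM), Ifng (22.6 ± 31.7 against 303 ± 110 CPM) and Xcl1 (9.53 ± 16.8 against 315 ± 136 CPM). Each of these, and Il2rb, Cd160 and Zfp683, was lower in 6 of 6 libraries. Icos was higher in 6 of 6, at 471 ± 165 against 213 ± 80.0 CPM. Il4 was lower in the Il17rb set in 5 of 6 libraries, at 114 ± 49.3 against 149.7 ± 72.9 CPM, and was found in 58.1% of its cells against 58.0%. Gamma chain genes were higher in the Il17rb set in 5 of 6 libraries, at 708 ± 282 against 310 ± 256 CPM. Of the 15 Zbtb16+ cells with a UMI of the delta chain gene Trdc (below), 6 had Il17rb and 3 had Tbx21, and their part in this contrast was not tested. The Il17rb set came from 1 cell in H2-O WT replicate 1 and from 3 to 9 cells in each other library. Its median cell was the deeper of the pair (7957 UMIs, against 6327). Il4 and Ifng were not exclusive, since 46 cells had UMIs of both.

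Gamma chain genes were common in the Zbtb16+ cells. At least 1 was found in 105 Zbtb16+ cells (45.9%) and in 119 of the other kept cells (0.577%). By library the share was 48.1%, 36.4% and 55.6% in the KO libraries and 42.1%, 48.0% and 36.7% in the WT libraries, so the genotypes overlapped. After thinning to 1500 UMIs it was 31.2% ± 4.58 against 0.323% ± 0.0213 (SD, n = 6). Trgv2 was in 61 cells, Tcrg-C4 in 50, Tcrg-V1 in 45, Tcrg-V4 in 37, Tcrg-C1 in 35 and Tcrg-C2 in 32, while Tcrg-V5, Tcrg-V6 and Tcrg-V7 were in 2, 4 and 2 and Tcrg-V3 in none. Tcrg-V1 and Trgv2 share no stretch of 91 bases, and Tcrg-C1 and Tcrg-C2 share 14 of 834. Of the 105 cells, 101 also had a Trbv UMI, 77 Trac, 88 another defining marker and 20 Trav11 or Traj18. Their Trav level was lower than that of the cells without a gamma chain UMI in 6 of 6 libraries, at 174 ± 73.0 against 273 ± 90.7 CPM, with a Trav UMI in 47.6% against 54.0% of the cells. Against cells without a gamma chain UMI they had more Id2, an inhibitor of E proteins (695 ± 123 against 495 ± 174 CPM) and more Rora, each in 6 of 6 libraries.

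A delta chain was rare. Trdc, the constant segment of the delta chain, was in 15 cells (6.55%, against 0.761%), with 4, 2 and 2 in the KO libraries and 2, 4 and 1 in the WT libraries, and 13 of the 15 had a gamma chain UMI. All 10 cells with 2 or more Trdc UMIs did. Gamma-delta T cells that express PLZF are known to pair Tcrg-V1 with a delta segment of the Trav15-dv6 group, which alpha chains can use too. Tcrg-V1 was in 9 of the 15 and a Trav15-dv6 segment in 7, and every one of the 7 Zbtb16+ cells with such a segment had Trdc. In the other kept cells 454 had a Trav15-dv6 UMI and 12 of them Trdc. Of the 15 cells 11 had a Trbv UMI and 7 Trac, and 7 had no other defining marker. Sox13, a factor of gamma-delta T cells, was in 3 of the 229 cells and Cd163l1 in 5.

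**Figure D3:**
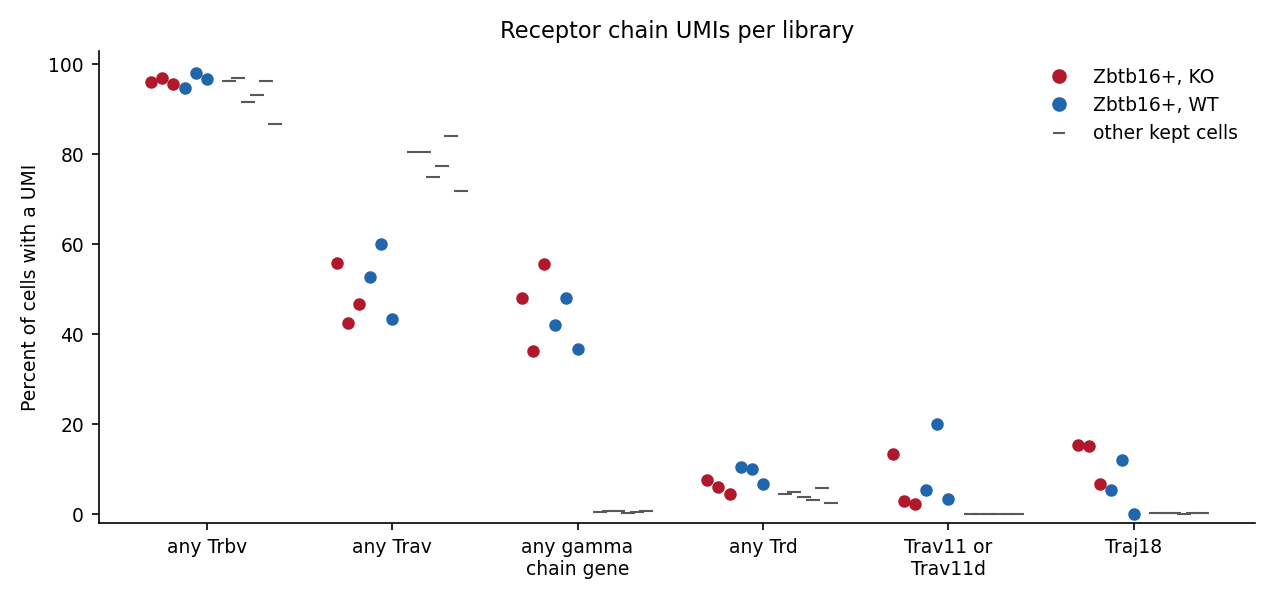
Percent of cells with a UMI (y axis) of each receptor group, with red and blue points for the Zbtb16+ cells of each H2-O KO and H2-O WT library and grey dashes for the other kept cells. Gamma chain genes lie between 36.4% and 55.6% in the Zbtb16+ cells and under 1% elsewhere, and Trav lies lower in the Zbtb16+ cells in every library.

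Markers of other cell types were then counted. The MAIT chain segment Trav1 was in 1 cell and Traj33 in none (nor in any other kept cell), and Trbv19, which MAIT cells use along with many T cells, was in 9.61% against 10.6%. Any gene of the NK and ILC1 list was in 20.1% of the Zbtb16+ cells, against 8.35% of the other kept cells. Summed over its 11 genes the level was 232, 92.6 and 64.5 CPM in the KO libraries and 57.9, 63.0 and 119 CPM in the WT libraries, each above the other kept cells of its library (22.8 to 58.8 CPM), and on the mean 5 of the 11 were higher. Without the 3 cells with most of the Lyz2, Cd74 and Mki67 UMIs (below), a choice made after seeing the data, H2-O KO replicate 1 was at 26.3 CPM, below its other kept cells (34.6 CPM), the other 5 libraries stayed above theirs, and 3 of the 11 genes were higher on the mean. The cells with a UMI were mostly those with Klrb1c (28) or Prf1, the gene of perforin (20). Klre1, Klra4, Klra8 and Ncr1 had no UMI, Eomes was in 1 cell, and Tyrobp and Fcer1g were in 3 each, Fcer1g with the most UMIs of the list (45, of which 38 were in 1 cell of H2-O KO replicate 1). The part of NK or ILC1 cells in the results was not tested. Cd8a was in 1 cell. Among the ILC genes Il1rl1, Nmur1 and Klrg1 were in 1 cell each, while Cd3e was in 222 of the 229. Cd3d, Cd3e and Cd3g together had under 3 UMIs in 7 cells and none in 3. Cd4, for which the cells were sorted, was in 110 cells (48.0%) at 130 ± 44.4 CPM, against 63.1% and 269 ± 40.3 CPM (SD, n = 6) in the other kept cells, lower in every library. One cell of H2-O KO replicate 1 held all 277 Lyz2 UMIs, 34 of 43 Tyrobp UMIs, 38 of 45 Fcer1g UMIs and no Cd3 UMI. One of H2-O WT replicate 3 held 291 of 325 Cd74 UMIs, 87 of 88 H2-Aa UMIs and 1 Cd3 UMI. One of H2-O WT replicate 1, with 32 Cd3 UMIs, held 42 of 62 Stmn1 UMIs and 13 of 15 Mki67 UMIs, both genes of dividing cells. Results that rest on these cells are named below.

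Naive genes were low and memory genes high in the Zbtb16+ cells. None of 10 naive CD4 genes had a higher mean than in the other kept cells. Ccr7 stood at 125 ± 41.6 against 559 ± 59.9 CPM and S1pr1, the receptor for exit into blood, at 105 ± 17.7 against 354 ± 34.4 CPM, both lower in 6 of 6 libraries, where 9.87% of 19151 genes were. Of 10 memory genes 8 were higher on the mean, among them S100a6 (475 ± 152 against 138 ± 65.5 CPM) and Cd44 (110 ± 25.9 against 38.6 ± 8.68 CPM). Id2 stood at 598 ± 130 against 107 ± 14.5 CPM, and Il12rb1, Il18rap and Il18r1, receptors for IL-12 and IL-18, were 21.8, 10.9 and 3.05 times as high. Interferon-induced Isg15 was 3.77 times as high, at 123, 314 and 383 CPM in the KO libraries and 203, 109 and 315 CPM in the WT libraries. The early response genes Fos (780 ± 117 against 290 ± 46.3 CPM) and Egr1 (519 ± 296 against 92.8 ± 9.65 CPM) were higher in 6 of 6 libraries as well. Of 10 genes of T cell receptor signalling 5 were higher on the mean and 2 in all 6 libraries. Of 11 dissociation stress genes 11 were higher on the mean and 3 in all 6 libraries. Fos and Egr1 answer both receptor signals and tissue dissociation, and the part of either was not tested.

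The first question between genotypes was how frequent the cells were. Zbtb16+ cells made up 0.776%, 1.09% and 1.02% of the cells passing the filters in the KO libraries and 1.63%, 1.55% and 1.31% in the WT libraries. All 3 H2-O KO libraries lay under all 3 H2-O WT libraries, at 0.959% ± 0.162 against 1.496% ± 0.164 (SD, n = 3 each), a difference of -0.537 percentage points. The exact two-sided permutation test over libraries gave p = 0.1, the smallest that 3 mice against 3 allow (20 assignments). The exact binomial 95% intervals of the single libraries, which cover counting error only, ran from 0.580% to 1.02% in H2-O KO replicate 1, the lowest, and from 0.981% to 2.53% in H2-O WT replicate 1, the highest. The separation was lost under 4 narrower definitions. With at least 2 Zbtb16 UMIs the share was 0.534% ± 0.0915 against 0.783% ± 0.265 (exact p = 0.3), and with another defining marker, an alternative chosen after seeing the data, it was 0.758% ± 0.171 against 1.02% ± 0.282 (exact p = 0.3). After thinning to 1500 UMIs it was 0.399% ± 0.0561 against 0.576% ± 0.177 (exact p = 0.2). Among cells of at most 8000 UMIs, where the libraries overlapped as well, it was 0.801% ± 0.240 against 1.23% ± 0.271 (exact p = 0.2). Cells under the ribosomal limit made up 3.38%, 8.09% and 16.9% of the KO libraries and 47.9%, 22.2% and 46.3% of the WT libraries, and the share was repeated with that limit removed and with a stricter one. The groups did not overlap without the limit (0.965% ± 0.143 against 1.46% ± 0.399) or with at least 20% ribosomal protein UMIs (0.871% ± 0.214 against 1.34% ± 0.191, exact permutation p = 0.1 in both). Nor did they overlap in cells of at least 2000 UMIs (1.02% ± 0.187 against 1.54% ± 0.0373, exact permutation p = 0.1). With at least 3 Cd3 UMIs, an alternative chosen after seeing the data, they also stayed apart (0.954% ± 0.170 against 1.38% ± 0.217, exact permutation p = 0.1).

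**Figure D4:**
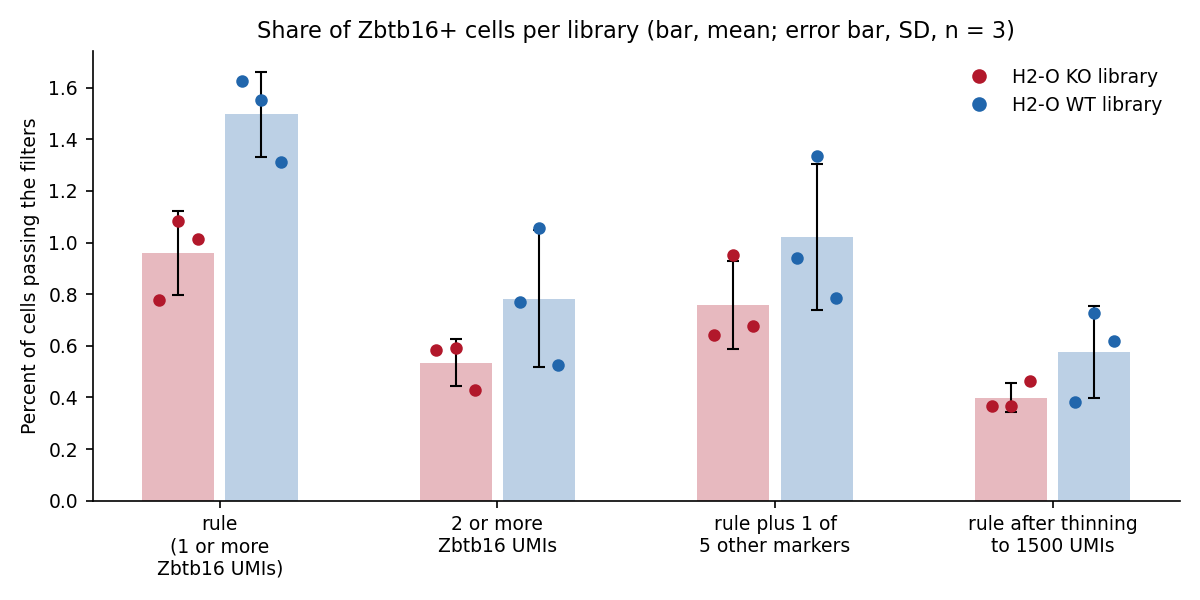
Zbtb16+ cells as a percent of cells passing the filters (y axis) under the rule and 3 narrower definitions, with a point per library, bars at the mean and error bars of 1 SD (n = 3 libraries a genotype). Under the rule the H2-O KO points (0.776% to 1.09%) lie below the H2-O WT points (1.31% to 1.63%), and in the other 3 definitions the points overlap.

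The make-up of the cells was then compared. For 6 gene lists the share of Zbtb16+ cells with a UMI of the list was tested by the exact two-sided permutation test over libraries. No list could pass the threshold of 0.05, since the smallest p of 3 libraries against 3 is 0.1. The Benjamini-Hochberg adjusted p was 0.72 for 5 lists and 1 for the naive list, and the libraries overlapped for all 6. Under 2 alternatives they did not, at the smallest p of 0.1: in cells with another marker delta chain genes were in 1.55% ± 2.69 of KO and 10.2% ± 6.92 of WT cells, and without the ribosomal limit NKT2 genes were in 97.8% ± 1.93 and 87.3% ± 5.18. NKT1 genes were in 84.1% ± 9.27 of the cells in the KO libraries and 79.9% ± 6.16 in the WT libraries (exact p = 0.6), NKT2 genes in 98.2% ± 1.57 and 90.8% ± 10.8 (exact p = 0.4), and NKT17 genes in 73.6% ± 9.84 and 63.3% ± 14.6 (exact p = 0.5). Gamma chain genes were in 46.7% ± 9.67 and 42.3% ± 5.67 (exact p = 0.6), and delta chain genes in 6.07% ± 1.62 and 9.06% ± 2.09 (exact p = 0.2), all with n = 3 libraries a genotype. Such shares fill up when a list holds 1 widespread gene, and the delta share rests on 2 to 5 cells a library. The share with Trav11 or Trav11d was 13.5%, 3.03% and 2.22% in the KO libraries and 5.26%, 20% and 3.33% in the WT libraries, a difference of -3.29 points (exact p = 0.5), and with Traj18 counted too, an alternative added after seeing the data, it turned to 3.40 points (exact p = 0.8).

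Across genes, the quasi-likelihood test of edgeR, adjusted after Benjamini-Hochberg, called 1 of 3921 genes between KO and WT libraries in the Zbtb16+ cells (0.0255%). DESeq2 called none, with 93 genes at an unadjusted p under 0.05. By edgeR 314 genes (8.01%) were at an unadjusted p under 0.05, and the libraries did not overlap for 528 (13.5%). The called gene was Gm21887 (ENSMUSG00000095562), a gene model on chromosome X from 170009659 to 170019281. It had 0, 0 and 8 UMIs in the KO libraries and 12, 41 and 19 in the WT libraries, which is 0, 0 and 28.7 CPM against 116, 117 and 103.1 CPM. The H2-O WT libraries were alike and all above the third H2-O KO library, the only one of its group with UMIs. The log2 fold change was -3.45 (SE 0.548, adjusted p = 0.00968 by edgeR). Leaving out each library gave -7.74 to -2.68, with -7.74 without H2-O KO replicate 3, when the KO side was at 0, and the call was lost without H2-O WT replicate 2 (adjusted p = 0.196 by edgeR). The same order held in the other kept cells, at 1.59, 0.775 and 37.5 CPM in the KO libraries and 114, 116 and 185 CPM in the WT libraries. Of its 784 distinct stretches of 91 bases, 441 also occur in Gm47283 on chromosome Y, so the 2 genes share reads and its value is uncertain. Gm47283 was also lower in KO in the other kept cells, at 5.71, 2.26 and 16.3 CPM against 53.8, 43.2 and 81.1 CPM. The methods give the mice as female. Xist, the RNA of the inactive X, was at 191 to 271 CPM in the other kept cells of all 6 libraries, and the Y-linked genes Ddx3y and Eif2s3y had no UMI in any called cell of any library. By the methods the wild-type line was bought and both lines were bred in house, with no mention of littermates, so a difference between the lines and an effect of H2-O loss cannot be told apart.

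No gene of the lists described above was called by edgeR. Of the 5 defining markers other than Zbtb16, which the rule itself used, 3 were higher and 2 lower in the KO libraries, with a median log2 fold change of 0.10 (that of Zfp683), beside 0.0038 over all genes tested. Cxcr6 stood at 0.40 (SE 0.248, adjusted p = 0.729 by edgeR). Of the 16 NKT1 genes 9 passed the low-count filter, 2 higher and 7 lower, with a median of -0.29. Nkg7 had the lowest p of them, at 332, 494 and 154 CPM in the KO libraries and 367, 624 and 543 CPM in the WT libraries, and a log2 fold change of -0.72 (SE 0.266, adjusted p = 0.522 by edgeR). The second H2-O KO library overlapped with H2-O WT. Of the 12 NKT2 genes 10 were tested, 5 higher and 5 lower (median 0.12), of the 14 NKT17 genes only Rora and Maf, and of the 17 gamma-delta genes 5 (median 0.12). By edgeR 3 of the 10 NKT2 genes and 1 of the 9 NKT1 genes had an unadjusted p under 0.05, beside 8.01% of all genes tested. The lowest adjusted p of the NKT2 genes was 0.559 by edgeR. These medians and counts rest on few genes.

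**Figure D5:**
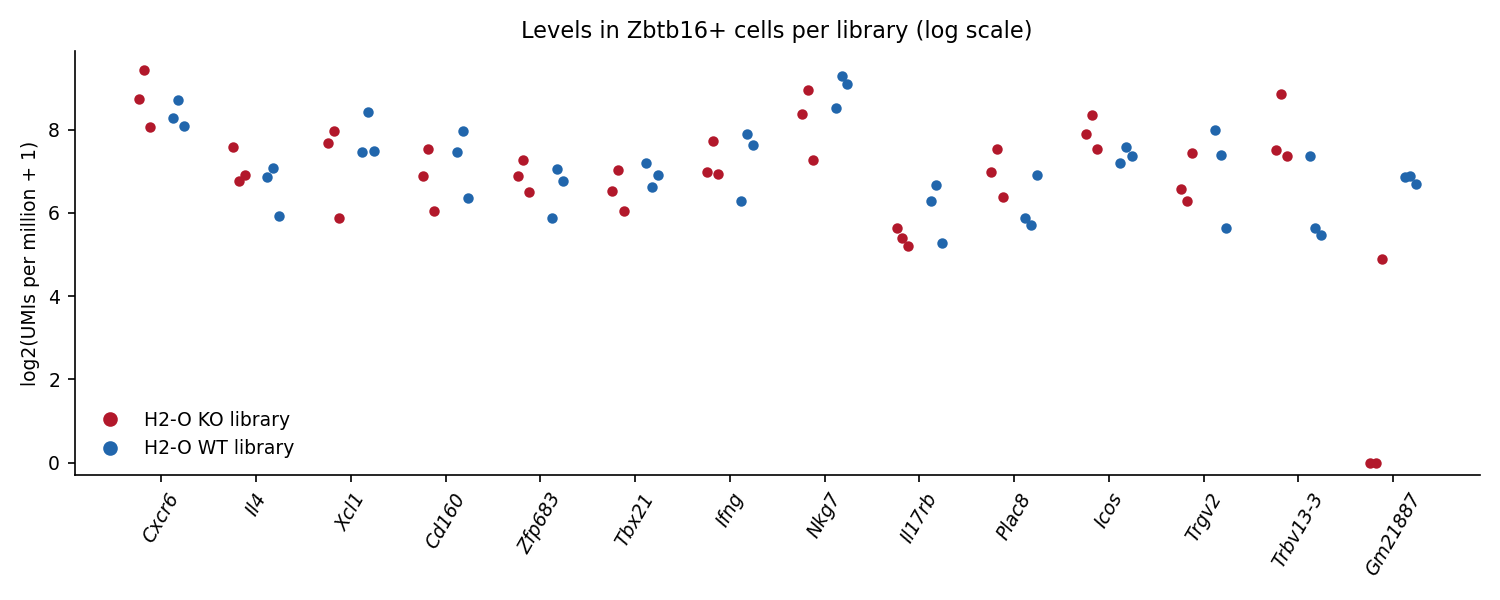
Levels in the Zbtb16+ cells as log2(CPM + 1) (y axis, log scale), a point per library, red for H2-O KO and blue for H2-O WT. For the markers and the NKT1 and NKT2 genes the colours overlap, while Trbv13-3 narrowly and Gm21887 widely separate, the latter with 2 H2-O KO libraries at 0.

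Closest to the threshold after Gm21887 were 4 genes whose libraries did not overlap, named here after their values were seen. Glo1, a detoxifying glyoxalase, stood at 140.2, 113 and 161 CPM in the KO libraries and 67.6, 51.5 and 54.3 CPM in the WT libraries (log2 fold change 1.35, SE 0.268, adjusted p = 0.0713 by edgeR). All 3 H2-O KO libraries were above all 3 H2-O WT libraries. Glo1 was not among the 11 genes called below for a different effect in Zbtb16+ and other kept cells, so its difference is not shown to be particular to Zbtb16+ cells. As for Gm21887, a difference between the lines and an effect of H2-O loss cannot be told apart. Usp9x, a deubiquitinase, was at -1.64 (SE 0.329, adjusted p = 0.0713 by edgeR) and Txnip, an inhibitor of thioredoxin, at -0.99 (SE 0.212, adjusted p = 0.0984 by edgeR). Trbv13-3 stood at 180.3, 458 and 165 CPM in the KO libraries and 164, 48.7 and 43.4 CPM in the WT libraries (log2 fold change 1.89, SE 0.404, adjusted p = 0.0984 by edgeR), from 27 cells in all, with the highest value in H2-O KO replicate 2.

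Whether the effect of H2-O loss differed between Zbtb16+ and other kept cells was tested as an interaction, with the library as a block, and edgeR called 11 of 10164 genes (0.108%, Benjamini-Hochberg adjustment). DESeq2 called none, with 143 at an unadjusted p under 0.05. The genes that met the naming rule were H2-Aa, H2-Ab1 and H2-Eb1, of MHC class II. H2-Aa had 0, 0 and 3.58 CPM in the Zbtb16+ cells of H2-O KO and 0, 0 and 472 CPM in those of H2-O WT, where 87 of 88 UMIs came from the single cell of H2-O WT replicate 3 described above. The other kept cells of the KO libraries had 14.3, 6.07 and 36.2 CPM of H2-Aa, and those of the WT libraries 4.21, 2.33 and 4.74 CPM. The genotypes thus overlapped in the Zbtb16+ cells and not in the other kept cells, and the difference between the 2 sets within a library did not overlap either. Without that library the fitted difference for H2-Aa turned from -8.59 to 3.52 on the log2 scale, and for H2-Ab1 and H2-Eb1 it lost its call. The Lyz2 call likewise rested on the cell of H2-O KO replicate 1, and those of Stmn1, Hist1h1b and Hist1h2ae were lost without H2-O WT replicate 1. Trbv15, Trbv12-1 and Hist1h1b lost theirs without H2-O KO replicate 3, and Trbv12-1 without H2-O WT replicate 2 as well (adjusted p = 0.572 by edgeR). With only cells of at least 3 Cd3 UMIs kept, a choice made after seeing the data, 9 genes were called, of which 6 were among the 11. Trbv13-3 was called at 1.88 (SE 0.295, adjusted p = 1.11e-05 by edgeR), and in the other kept cells it ran from 90.1 to 105 CPM in all 6 libraries.

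The Zbtb16+ cells with a Trav11 or Trav11d UMI were compared with the rest of the Zbtb16+ cells of the same library. Here edgeR called 3 of 1264 genes (0.237%, Benjamini-Hochberg adjustment) and DESeq2 none (52 at an unadjusted p under 0.05), and in 4 of the 6 libraries the Trav11+ side was a single cell. S100a6, a calcium-binding protein of memory cells, was lower in 6 of 6 libraries, at 335 and 255 CPM in the 2 libraries with 7 and 10 such cells and 0 in the other 4, against 207 to 672 CPM without Trav11 (log2 fold change -1.45, SE 0.352, adjusted p = 0.0233 by edgeR). Trbv13-2 was lower in 6 of 6 as well (-1.38, SE 0.345, adjusted p = 0.0282 by edgeR). Ccl5 was higher in 5 of 6 libraries (1.66, SE 0.256, adjusted p = 1.15e-07 by edgeR) and lower in H2-O KO replicate 1, at 433 against 1038 CPM, which put it outside the naming rule. A value of 0 in a sum of 1 cell carries little weight, and all 3 calls were lost without H2-O KO replicate 3 or without H2-O WT replicate 3. S100a6 also lost its call without H2-O WT replicate 1 or 2 (adjusted p = 0.165 and 0.329 by edgeR). Trbv13-2 lost its call without either of these (adjusted p = 0.169 and 0.0766 by edgeR) and without H2-O KO replicate 1 (adjusted p = 0.0848 by edgeR). With Traj18 counted too, an alternative added after seeing the data, 2 genes were called by edgeR, Ccl5 among them (1.52, adjusted p = 0.0356), while S100a6 was at -0.73 (adjusted p = 0.712) and Trbv13-2 at -0.66 (adjusted p = 0.655).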

How the data were processed

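Per the labels and the methods, the authors sorted splenic CD4 T cells and sequenced 1 library per mouse with the 10x Genomics 5' kit (v1.1). The submitters' processing notes name Cell Ranger 6.1.2 and mm10. The deposited values are UMI counts per gene and called cell, without normalization. Gene positions and sequences came from the GENCODE vM21 annotation of GRCm38, where 32158 of 32285 gene identifiers were found.

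The authors' limits on genes, UMIs and mitochondrial counts were applied, with the ribosomal limit added. Doublets were limited only by the maximum of UMIs and the excluded genes, and no doublet caller was run. Counts were summed per library and tested with edgeR 4.0.16 (filterByExpr, TMM, quasi-likelihood test, Benjamini-Hochberg adjusted p under 0.05) in R 4.3.3, with DESeq2 1.42.0 as an alternative. Shares were compared by exact permutation over libraries. Thinning drew 1500 UMIs per cell and left out 5 Zbtb16+ cells of H2-O WT (2 of replicate 1 and 3 of replicate 3). A share of 0 cells allows up to 3 cells of the total, and intervals are exact Clopper-Pearson at 95%.

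The Zbtb16 rule and the gene lists were chosen with earlier results of these data known. The text describes genes by list, and names from the fits the 5 largest rises and falls among called genes whose libraries do not overlap, or, for Trav11+ cells, the 10 largest in each direction in 6 of 6 libraries outside Trav and Traj. Other genes are marked where named. Other lists gave these counts of genes higher on the mean: T follicular helper 1 of 6, Treg 3 of 7, macrophage 3 of 9, B cell 4 of 10, cycling 6 of 6, dissociation stress 11 of 11, nuclear-retained 4 of 7 and T cell receptor signalling 5 of 10. Without the 3 cells with most of the Lyz2, Cd74 and Mki67 UMIs, the macrophage, B cell and cycling counts were 0, 0 and 1, and their summed levels were below the other kept cells in 6 of 6 libraries. The fits were tested on simulated data with known changes, 100 genes changed at each size. Changes of 2-fold were recovered for 47% between genotypes, 42% between Trav11+ and Trav11- cells and 13% for the interaction. Changes of 4-fold were recovered for 93%, 92% and 48% in the same order. Changes of 2-fold could thus be missed in each fit, most often for the interaction. Values of some genes are not reported here.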

Additional observations from a re-analysis of the deposited data

Results flagged for a closer look

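The 11 genes with a called difference in the effect of H2-O loss between Zbtb16+ and other kept cells (edgeR quasi-likelihood test of the interaction, Benjamini-Hochberg adjustment) are given here as log2 differences, Zbtb16+ minus other kept cells. H2-Eb1 was at -15.3, H2-Ab1 at -14.2, H2-Aa at -8.59 and Cd74 at -5.33, and 291 of the 325 Cd74 UMIs were in 1 cell of H2-O WT replicate 3. Lyz2 was at 12.9, with all 277 UMIs in 1 cell of H2-O KO replicate 1. Hist1h1b was at -5.78, Hist1h2ae at -3.97 and Stmn1 at -2.94, with the Zbtb16+ cells of H2-O WT replicate 1 the only ones above the other kept cells of their library. Of the beta segments, Trbv12-1 was at 10.7, Trbv15 at 1.89 and Trbv13-3 at 1.88. Where a group has libraries at 0 UMIs, the fitted size depends on the prior count and is not a bound. Trbv15 was in 11 of the 229 Zbtb16+ cells, and how far single clones carry such a segment was not tested.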

How the results depend on the processing

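The lower share of Zbtb16+ cells in H2-O KO kept its direction under all 15 alternatives, of which 6 left out a library. As the genotypes did not overlap under the rule, leaving out a library could not turn the sign. It moved the difference between -0.629 and -0.446 percentage points. The remaining alternatives filtered the same 6 libraries anew, and in some of them the genotypes overlapped, as given above. The count of alternatives is thus no measure of support. The other shares could not pass the threshold with 3 libraries against 3. Of them NKT2 kept its sign under all 13 alternatives and the others did not. The NKT2 share was already 100% in H2-O KO replicate 1 and H2-O WT replicate 2 under the rule, so its sign carries little weight. For the Trav11 share the difference was 3.40 with Traj18 counted too. For the lists it was -2.14 (NKT1) and 0.687 (delta chain) with at least 20% ribosomal protein UMIs, -1.15 (NKT1) with another marker, -10.3 (gamma chain), 1.31 (delta chain) and -1.75 (naive) with at least 2 Zbtb16 UMIs, and -5.82 (NKT17) and -4.84 (naive) after thinning. Leaving out each library gave -6.91 to 1.94 for Trav11, -0.771 to 8.42 for NKT1, 1.58 to 12.1 for NKT2, 2.25 to 16.6 for NKT17, -0.0371 to 9.56 for the gamma chain, -4.20 to -2.19 for the delta chain and -0.741 to 4.52 for the naive list. The genes called between genotypes, 1 by edgeR, numbered 0 with DESeq2, 38 with every gene that had a UMI, 16 with the replicate block, 0 with at least 2 Zbtb16 UMIs, 2 with another marker, 0 in cells with Trav11, and 0 to 5 without each library (0 without H2-O WT replicate 2, 3 without H2-O KO replicate 1 or H2-O WT replicate 1, 5 and 4 without H2-O KO replicates 2 and 3). The replicate numbers pair nothing in the labels, the correlations of same-numbered libraries were 0.0285, 0.0775 and 0.0941, each the highest for its H2-O WT library, while H2-O KO replicate 1 stood higher with H2-O WT replicate 2 (0.0443), so the numbers were not taken as pairs. For Trav11+ against Trav11- cells, 3 calls became 0 with DESeq2, 1 with RLE normalization, 23 with every gene that had a UMI (none of the 3 among them), 0 with at least 2 Zbtb16 UMIs, 0 with at least 20% ribosomal protein UMIs, and 0 to 6 without each library, and 2 with Traj18 counted too (1 of the 3 among them). For the interaction, 11 became 0 with DESeq2, 6 with at least 2 Zbtb16 UMIs (1 of the 11 among them) and 11 to 18 without each library, and H2-Aa ran from -13.8 to 3.52 and Lyz2 from -0.499 to 14.3, with Lyz2 at -0.359 with at least 2 Zbtb16 UMIs. The causes of these changes were not tested.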
